A study of Mus musculus with 9 samples.

Results

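The genes Ly6a, Ly6c1, Ly6c2, Ly6e and Ly6i, 5 of the 32286 rows of the feature table, were chosen by symbol, after earlier results of these data had shown Ly6 genes to be high in knockout tumour cells. They were measured in single-cell RNA sequencing (scRNA-seq) of 9 primary tumours grown from 168FARN, a non-metastatic mouse mammary tumour line, in the mammary fat pads of syngeneic immunocompetent female BALB/c mice. In 3 tumours the injected cells were wild type (WT), in 3 they carried a Kmt2c knockout (Kmt2c KO) and in 3 a Kmt2d knockout (Kmt2d KO). All tumour cells also carried an H2B–mCherry reporter transcript, H2BMc, whereas host cells carried neither the reporter nor a knockout. Each knockout was made with a pool of guides in a sorted pool of cells, so that the tumours of a group replicate the mouse and not the knockout. Libraries are numbered 1 to 3 within a group, and a number pairs nothing.

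Ly6 proteins are small cell surface proteins held by a lipid (GPI) anchor, and their genes lie side by side in the mouse genome. Ly6a encodes Sca-1, a marker of blood stem cells that is also found on endothelium. Ly6c1 and Ly6c2 encode the Ly6C antigen of inflammatory monocytes, some T cells and endothelium. Ly6e is widely expressed and is known for limiting coronavirus entry, and Ly6i is a close relative of Ly6a. Several Ly6 genes are known interferon-response genes, and some are lineage markers as well, so levels were read in the tumour cells and in 3 host cell types of the same tumours.

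The 5 genes lie on chromosome 15 (GRCm38.p6). Ly6e (ENSMUSG00000022587) is at chr15:74955025-74959904 and Ly6i (ENSMUSG00000022586) at chr15:74979534-74983434. Ly6a (ENSMUSG00000075602) is at chr15:74994877-74998031, Ly6c1 (ENSMUSG00000079018) at chr15:75044018-75048920 and Ly6c2 (ENSMUSG00000022584) at chr15:75108161-75112066. They span 157042 bases, and of the 10 annotated genes in this span the 5 protein-coding ones were these. The coding sequences of Ly6c1 and Ly6c2 were identical at 387 of 396 bases (97.7%), those of Ly6a and Ly6i at 86.4% and those of Ly6a and Ly6c1 at 82.0%, whereas Ly6e was 50.5% to 53.8% identical to the others. The libraries were made from the 5′ end of the RNA, so the first 90 coding bases (positions 1 to 90, in the GENCODE M1 transcripts) are shown for the 2 closest pairs, each base in capitals where it differs from the other gene of the pair.
Ly6c1: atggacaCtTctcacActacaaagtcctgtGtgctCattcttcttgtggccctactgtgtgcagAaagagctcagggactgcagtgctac
Ly6c2: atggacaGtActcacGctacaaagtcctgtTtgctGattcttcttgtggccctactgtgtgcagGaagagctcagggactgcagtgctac
Ly6a: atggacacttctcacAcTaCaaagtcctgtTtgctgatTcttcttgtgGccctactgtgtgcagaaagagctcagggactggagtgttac
Ly6i: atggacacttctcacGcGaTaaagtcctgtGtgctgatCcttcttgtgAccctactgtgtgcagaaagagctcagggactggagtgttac
In each pair 6 of these 90 bases differed, and for Ly6c1 and Ly6c2 the 6 are most of the 9 differences in the whole coding sequence. A stretch of 50 bases of the Ly6c2 transcript was also found unchanged in another gene at 34.1% of positions, and 31.9% of the Ly6c1 stretches, 4.42% of those of Ly6a, 3.76% of those of Ly6i and 0 of those of Ly6e were shared. With 90 bases, 19.0% of Ly6c2 and 17.8% of Ly6c1 stretches were shared and none of the others. Counts of Ly6c1 and Ly6c2 are therefore uncertain one by one, and the cells are of BALB/c origin while the reference genome is not. How much this moved the counts was not tested.

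The matrix held 89147 cell barcodes with 21529691 to 125617312 unique molecular identifiers (UMIs, counted RNA molecules) per library. The cell filters kept 58645 cells (939 to 14525 per library). The limit on mitochondrial counts removed 26.6% to 68.5% of barcodes in the WT libraries and 13.0% to 29.5% in the KO libraries. Cells with an H2BMc UMI numbered 16068 (333 to 3357 per library), and gates of marker genes gave 425 endothelial cells (30 to 70 per library), 741 macrophages (29 to 190) and 324 T cells, with at least 10 T cells in 6 libraries. Any pair of libraries shared 2 to 206 barcodes, at most 2.28% of the smaller library. H2BMc-positive cells held 234 to 571 CPM (UMIs of a gene in the cells summed, scaled to a total of 1000000) of the epithelial keratin gene Krt8 but at most 14 UMIs of Krt18 in any library. The mRNA of the targeted genes, whose guides were directed at exon 1, did not separate the knockouts downwards from WT and so does not check the labels. In H2BMc-positive cells Kmt2c stood at 48.8 ± 0.695 CPM (SD, n = 3) in WT and 48.1 ± 8.97 in Kmt2c KO (43.7, 42.2 and 58.4 CPM, the first 2 below all WT libraries), and Kmt2d at 18.5 ± 3.93 in WT and 27.4 ± 3.93 in Kmt2d KO, where all libraries (24.3 to 31.8 CPM) were above all WT libraries (14.3 to 22.1 CPM). Kmt2d KO library 2 stood apart from the other Kmt2d KO libraries and near Kmt2c KO in most values below, and the contrasts that its omission changed are given with and without it. That library was singled out by these values, so results without it are descriptions.

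In the H2BMc-positive tumour cells, Ly6a, Ly6c1, Ly6c2 and Ly6e were high in all 3 Kmt2c KO libraries and in Kmt2d KO library 2. These levels are a description, since the genes were chosen on this contrast. Ly6a stood at 40.3, 60.1 and 54.1 CPM in WT, whereas libraries 1, 2 and 3 of Kmt2c KO held 809, 1285 and 1708 CPM and those of Kmt2d KO 125, 640 and 110 CPM. Every KO library was above every WT library, and Kmt2d KO libraries 1 and 3 lay nearer to WT than to Kmt2c KO. The log2 fold change of Ly6a was 4.61 ± 0.66 (SE, edgeR) for Kmt2c KO and 2.46 ± 0.60 for Kmt2d KO, and 1.16 for Kmt2d KO without its library 2.

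The Ly6c pair was likewise highest in Kmt2c KO and in Kmt2d KO library 2, at lower counts. Ly6c1 stood at 3.24, 3.88 and 2.73 CPM in WT, at 61.3, 92.4 and 123 CPM in Kmt2c KO and at 12.8, 44.2 and 13.2 CPM in Kmt2d KO. Ly6c2 stood at 11.1, 12.5 and 6.82 CPM in WT, at 67.1, 93.9 and 142 CPM in Kmt2c KO and at 14.98, 59.1 and 18.8 CPM in Kmt2d KO. No KO library overlapped WT for either gene. The log2 fold changes for Kmt2c KO were 4.78 ± 0.55 for Ly6c1 and 3.29 ± 0.51 for Ly6c2, and those for Kmt2d KO were 2.77 and 1.55, or 1.93 and 0.69 without library 2.

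Ly6e, present in most tumour cells of every library, had the smallest difference. It stood at 543, 562 and 503 CPM in WT, at 1050, 1105 and 1381 CPM in Kmt2c KO and at 483, 934 and 497 CPM in Kmt2d KO. Kmt2d KO libraries 1 and 3 were below all WT libraries. The log2 fold change was 1.13 ± 0.22 for Kmt2c KO and 0.22 ± 0.21 for Kmt2d KO, and −0.15 for Kmt2d KO without library 2.

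Ly6i was close to absent from the tumour cells. Kmt2c KO gave 17, 32 and 21 UMIs of it, Kmt2d KO 4, 25 and 6, and WT 2, 1 and 0, which is at most 1.11 CPM. A fold against 3 WT UMIs in all depends on the prior count and is no bound, so none is read here. In the fit across 13929 genes 18.2% were called for Kmt2c KO against WT at an adjusted p under 0.05, 2.05% for Kmt2d KO against WT and 0.0% for Kmt2d KO against Kmt2c KO (2433 genes had an unadjusted p under 0.05 there, and DESeq2 called 541). That last contrast turned on Kmt2d KO library 2, without which 2715 of 14020 genes were called. The log2 fold changes of Kmt2d KO against Kmt2c KO then went from −2.15 to −3.45 for Ly6a, from −2.01 to −2.84 for Ly6c1, from −1.73 to −2.58 for Ly6c2 and from −0.91 to −1.28 for Ly6e.

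**Figure D1:**
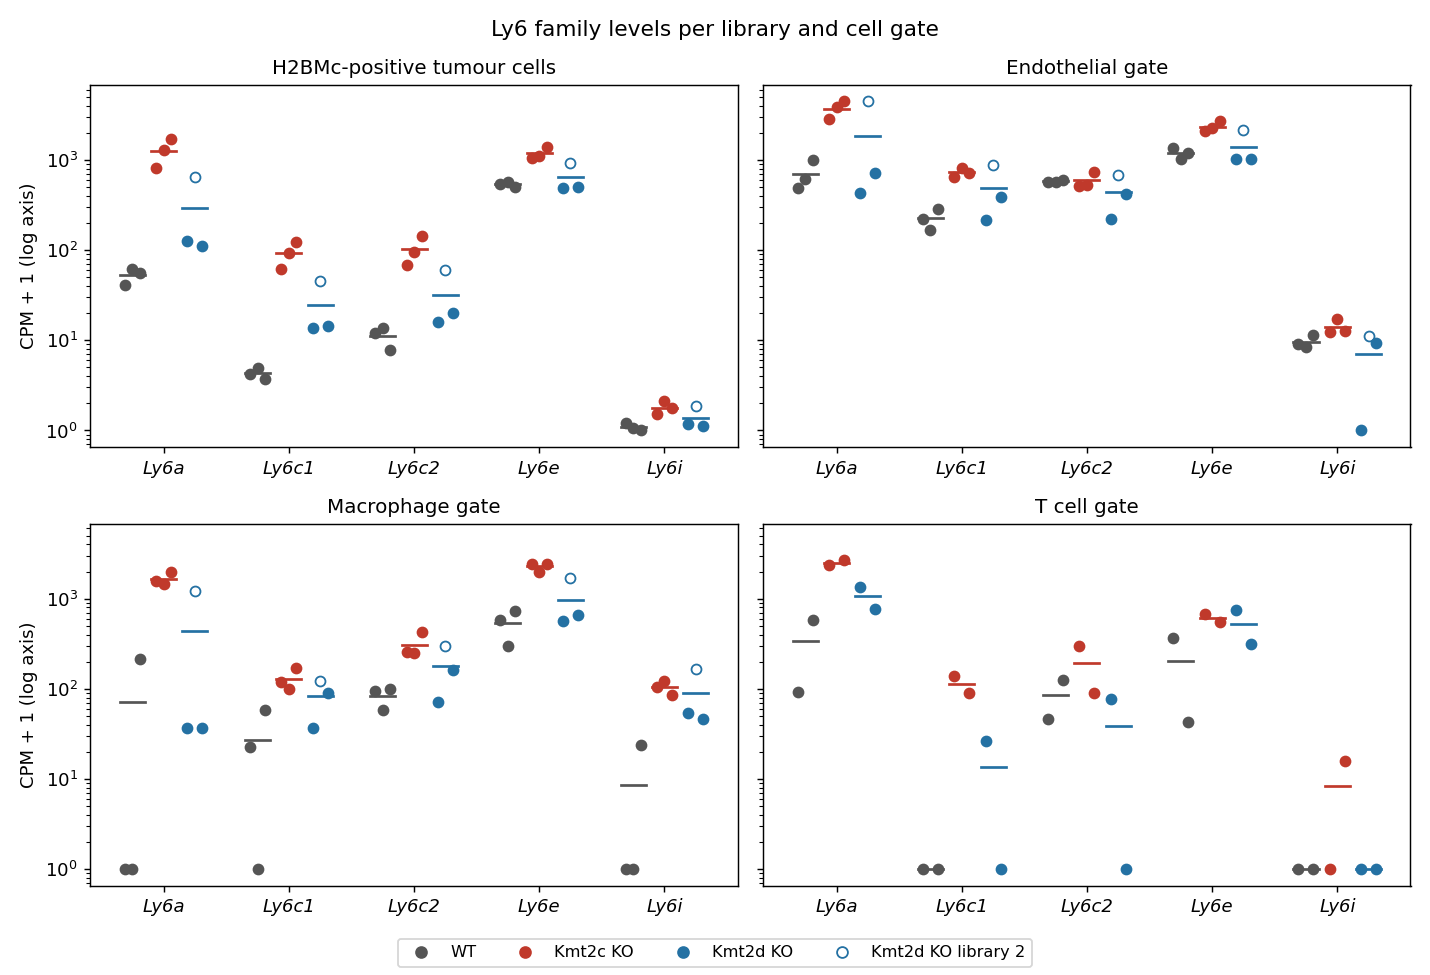
Level of each Ly6 gene (x axis) as CPM + 1 on a log axis in 4 cell gates, with 1 point per library, a bar at the group mean, and libraries with at least 10 gated cells shown. Ly6a separates Kmt2c KO (809 to 1708 CPM) from WT (40.3 to 60.1 CPM) in H2BMc-positive cells, the open points of Kmt2d KO library 2 lie near Kmt2c KO, and Ly6c2 in the endothelial gate lies at 508 to 735 CPM in Kmt2c KO and 569 to 603 CPM in WT.

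Detection per cell was compared after each H2BMc-positive cell had been thinned to 2000 UMIs, because the median UMI count per cell was 13630 to 23566 in the WT libraries and 8631 to 14515 in the KO libraries. Ly6a was then found in 55.7%, 61.1% and 72.1% of Kmt2c KO cells, in 15.5%, 46.7% and 14.0% of Kmt2d KO cells and in 6.21%, 8.53% and 5.17% of WT cells. Without thinning the shares were 76.0% to 88.0% in Kmt2c KO, 36.4% to 72.6% in Kmt2d KO and 26.7% to 27.6% in WT. Macrophages, which were not thinned and were gated without H2BMc UMIs, held Ly6a in 0 of 29 cells of WT library 1 and 0 of 46 cells of WT library 2, which allows shares of cells with a UMI of up to 10.3% and 6.52%, and in 12 of 68 cells of WT library 3. These macrophages set no background for the tumour cells, and the part of free RNA in the low WT shares was not tested. Ly6e was found in 75.5% to 80.5% of thinned Kmt2c KO cells, in 50.9%, 74.4% and 51.7% of Kmt2d KO cells and in 52.0% to 55.4% of WT cells. Kmt2d KO libraries 1 and 3 were therefore above all WT libraries in the Ly6a share and slightly below all of them in the Ly6e share.

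Within each library, cells were split into quartiles by their summed UMIs of 31 interferon-response genes present in the table (15 of type I and 16 of interferon gamma response), a list that holds no Ly6 gene. Ly6a detection went from 27.1% in the lowest to 83.0% in the highest quartile in Kmt2c KO library 1, from 27.3% to 90.7% in library 2 and from 39.4% to 94.5% in library 3. In Kmt2d KO it went from 6.49% to 37.4%, from 14.7% to 79.5% and from 5.90% to 32.8%. In WT it went from 2.86% to 11.5%, from 4.42% to 15.1% and from 1.20% to 13.4%. The share was higher in the highest than in the lowest quartile in 9 of 9 libraries. Cells of a quartile share a library and a common depth, so these are descriptions.

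Ly6e, Ly6c1 and Ly6c2 were also found more often in the highest than in the lowest quartile of each Kmt2c KO library, whereas Ly6i was found in at most 0.327% of the cells of any Kmt2c KO quartile. Ly6e went from 58.3% to 93.8%, from 44.3% to 95.4% and from 54.7% to 96.8% in Kmt2c KO, and from 48.6% to 58.7%, from 51.8% to 60.0% and from 42.2% to 68.3% in WT. Ly6e was thus found in 42.2% to 51.8% of WT cells even where interferon UMIs were lowest. Ly6c1 went from 3.65% to 22.0%, from 3.10% to 34.0% and from 7.81% to 35.7% in Kmt2c KO, and stood at 1.33% to 2.44% in the highest WT quartiles. Ly6c2 went from 5.83% to 23.5%, from 4.74% to 31.9% and from 11.05% to 34.9% in Kmt2c KO, and stood at 1.92% to 4.89% in the highest WT quartiles. The highest quartiles were not alike, with a mean of 6.33 to 9.79 interferon UMIs per cell in WT and 33.3 to 43.9 in Kmt2c KO.

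**Figure D2:**
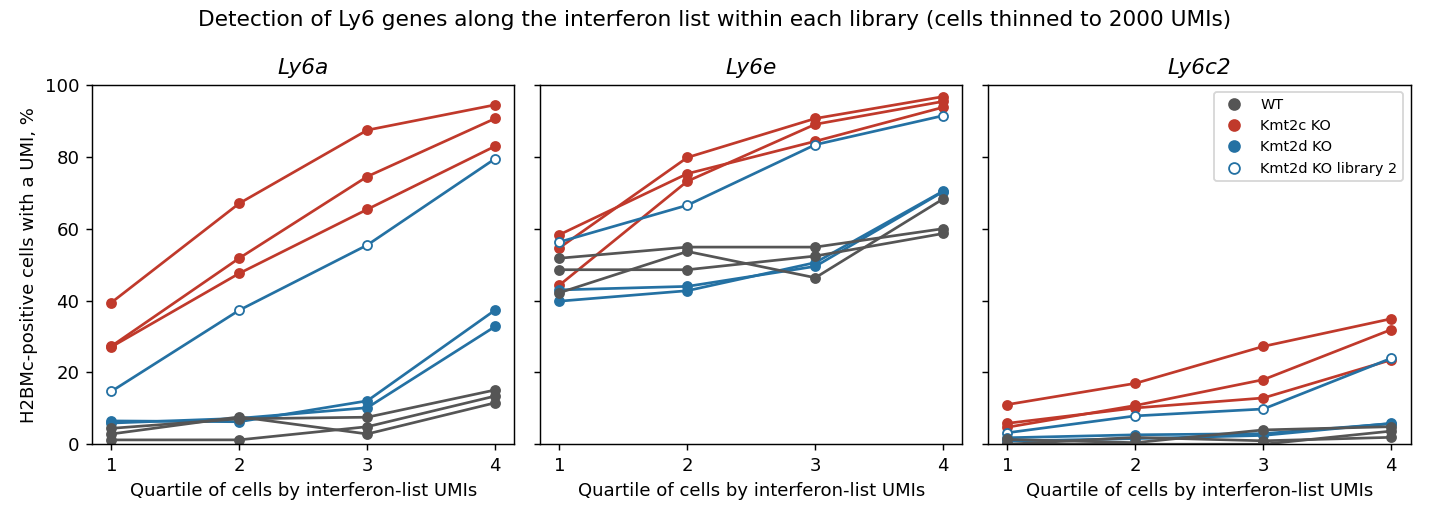
Percent of H2BMc-positive cells with a UMI of Ly6a, Ly6e or Ly6c2 (y axis), after thinning to 2000 UMIs, in quartiles of each library by interferon-list UMIs (x axis, 1 lowest to 4 highest), with 1 line per library. The Ly6a lines of Kmt2c KO run from 27.1% to 39.4% up to 83.0% to 94.5%, and those of WT end at 11.5% to 15.1%.

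In fixed bins of interferon UMIs Kmt2c KO libraries stayed above WT in Ly6a detection, whereas Kmt2d KO and WT overlapped in some bins. Cells with 0 to 1 interferon UMIs held Ly6a at 17.2%, 17.6% and 28.3% in Kmt2c KO, at 6.45%, 8.0% and 5.95% in Kmt2d KO and at 4.28%, 5.98% and 1.23% in WT. Cells with 20 or more held it at 82.4% to 91.8% in Kmt2c KO, at 73.3%, 80.6% and 71.7% in Kmt2d KO and at 50.0%, 62.5% and 50.0% in WT, where each library had only 8 such cells. At 5 to 9 UMIs Kmt2d KO (22.7%, 35.6% and 16.7%) lay above WT (11.6%, 8.33% and 9.38%) without overlap. At 10 to 19 UMIs Kmt2d KO libraries stood at 44.4%, 54.7% and 36.3% and WT libraries, with 14 to 23 cells each, at 6.67%, 47.8% and 21.4%, and at 2 to 4 UMIs WT library 2 (7.95%) was above Kmt2d KO library 3 (7.72%). The bin of 20 or more has no upper end, and its mean Ly6a UMIs per cell were 2.83, 4.34 and 2.32 in Kmt2d KO libraries 1, 2 and 3, of which libraries 1 and 3 had only 60 and 92 such cells. In the KO libraries Ly6c1 was found more often in cells that held Ly6a: in 18.5% to 26.9% of cells with it and 3.78% to 4.78% of cells without it in Kmt2c KO, and in 8.27% to 17.5% and 1.19% to 2.00% in Kmt2d KO. In WT, where 17 to 77 cells held Ly6a, the order was the opposite for Ly6c1 in library 1 and for Ly6c2 in library 3.

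Over the 9 libraries the genes whose log2(CPM + 1) in H2BMc-positive cells followed Ly6a most closely, of 8657 genes compared, were Irf1, C4b, Phf11d, Slfn2 and Batf2 (Pearson r 0.997 for Irf1 to 0.994 for Batf2). Irf1 is an interferon-induced transcription factor and C4b a complement component. Those closest to Ly6c1 were Ano8 (0.996), H2-T23, C4b, Oas2 and Agrn, and those closest to Ly6c2 were Git1 (0.993), Ccdc50, Batf2, Npc2 and B2m. For Ly6e they were Zbtb7b (0.991), Adamtsl3, Zbp1, Scand1 and Tmem140. The libraries fall into a high and a low set, so any gene that separates these sets gives a high r.

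Host cells of the same tumours carried no knockout, and the genes were chosen on tumour cells, so host levels entered edgeR's quasi-likelihood test across all genes. Tumour-cell RNA carried into the gates, gauged below, would tie these tests to that choice, and its part in them was not tested. In endothelial cells, Ly6a, Ly6c1 and Ly6e were higher in Kmt2c KO than in WT tumours and Ly6c2 was not. Ly6a stood at 485, 619 and 996 CPM in WT, at 2824, 3838 and 4454 CPM in Kmt2c KO and at 425, 4443 and 713 CPM in Kmt2d KO. All Kmt2c KO libraries lay above all WT libraries, whereas Kmt2d KO libraries 1 and 3 lay within or below the WT range. The log2 fold change for Kmt2c KO was 2.43 ± 0.61 (SE, adjusted p = 0.0272).

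Ly6c1 in endothelial cells stood at 221, 167 and 287 CPM in WT, at 650, 809 and 717 CPM in Kmt2c KO and at 216, 877 and 385 CPM in Kmt2d KO. The Kmt2c KO libraries did not overlap WT, with a log2 fold change of 1.72 ± 0.37 (edgeR adjusted p = 0.0141). Ly6e stood at 1366, 1018 and 1192 CPM in WT, at 2079, 2272 and 2678 CPM in Kmt2c KO and at 1027, 2145 and 1026 CPM in Kmt2d KO, a rise of 1.01 ± 0.25 on the log2 scale in Kmt2c KO (edgeR adjusted p = 0.0282). Ly6c2 stood at 574, 569 and 603 CPM in WT, at 508, 531 and 735 CPM in Kmt2c KO and at 219, 680 and 415 CPM in Kmt2d KO. Its groups overlapped, and its log2 fold change for Kmt2c KO was 0.05 ± 0.29 (edgeR adjusted p = 0.945). Ly6i was too low to test there (0 to 4 UMIs in KO and 3 to 5 in WT libraries).

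Of the 4 members tested in endothelial cells, 3 were thus called for Kmt2c KO against WT, where 6.36% of the 5393 genes tested were called. For Kmt2d KO against WT 0 of 4 were called (0.0371% of all genes), and for Kmt2d KO against Kmt2c KO 0 of 4 (0.0742% of all genes). Against WT, Ly6c1 was called once Kmt2d KO library 1 was left out (1.47, edgeR adjusted p = 0.0423). Without Kmt2d KO library 2 the contrast with Kmt2c KO called 314 of 6229 genes. The log2 fold changes were then −2.75 for Ly6a, −1.32 for Ly6c1, −0.93 for Ly6c2 and −1.24 for Ly6e. These are a description, since that library was singled out by its levels. The unadjusted edgeR p for Kmt2d KO against WT was under 0.05 for Ly6a (0.0283) and Ly6c1 (0.00845), as for 554 of the 5393 genes, and DESeq2 called neither. The log2 fold change of Ly6a for Kmt2d KO was 1.43 ± 0.59, and −0.33 without library 2. That omission left 0.39 for Ly6c1 (edgeR adjusted p = 0.668), −0.89 for Ly6c2 and −0.24 for Ly6e. The calls in Kmt2c KO depended on single libraries. That of Ly6a was lost without Kmt2c KO library 2 or 3 or WT library 1 or 2 (adjusted p 0.0675, 0.0946, 0.126 and 0.105) and with DESeq2 (0.0896), and that of Ly6c1 without the same libraries (adjusted p 0.0541, 0.0552, 0.0644 and 0.0712). That of Ly6e was lost without any single Kmt2c KO or WT library (adjusted p 0.0504 to 0.124). The log2 fold changes under these omissions were 2.20 to 2.38 for Ly6a, 1.53 to 1.74 for Ly6c1 and 0.89 to 1.09 for Ly6e.

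Macrophages, in which Ly6C is a known marker of cells recently derived from monocytes, had higher levels of all 5 members in Kmt2c KO than in WT tumours. Ly6a gave no UMI in WT libraries 1 and 2 and stood at 211 CPM in WT library 3 (12 of 68 cells, 17.6%, 95% exact interval 9.47% to 28.8%), at 1566, 1439 and 1950 CPM in Kmt2c KO and at 35.6, 1225 and 36.0 CPM in Kmt2d KO. No Kmt2c KO library was near WT, and Kmt2d KO libraries 1 and 3 lay within the WT range. The log2 fold change for Kmt2c KO was 4.25 ± 0.98 (edgeR adjusted p = 0.00976), a call that did not hold when Kmt2c KO library 3 was left out (4.14, adjusted p = 0.0516). Without WT library 3 both remaining WT libraries are at 0 and the fitted value of 11.71 is no bound.

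Ly6e in macrophages stood at 577, 300.2 and 737 CPM in WT, at 2427, 1961 and 2434 CPM in Kmt2c KO and at 564, 1694 and 666 CPM in Kmt2d KO. Its log2 fold change for Kmt2c KO was 2.10 ± 0.35 (edgeR adjusted p = 0.00114). In the Kmt2c KO libraries 84.9% to 94.0% of macrophages held a Ly6e UMI, against 28.3% to 51.5% in WT, where the median depth per macrophage was higher (2454.5 to 3600 UMIs, against 1680 to 2109.5 in Kmt2c KO). Ly6c2 stood at 92.7, 57.2 and 99.8 CPM in WT, at 254, 251 and 422 CPM in Kmt2c KO and at 71.1, 298 and 162 CPM in Kmt2d KO, a log2 fold change of 1.92 ± 0.40 for Kmt2c KO (edgeR adjusted p = 0.00484). Few cells carried the low values: the 13 Ly6c2 UMIs of WT library 1 came from 1 cell, and the 16 and 18 UMIs of Kmt2d KO libraries 1 and 3 from 2 cells each. In Kmt2c KO 23.2% to 34.3% of macrophages held Ly6c2, against 3.45% to 10.3% in WT.

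Ly6c1 in macrophages stood at 21.4, 0 and 57.6 CPM in WT, at 117.4, 99.5 and 169 CPM in Kmt2c KO and at 35.6, 122 and 89.98 CPM in Kmt2d KO. Its log2 fold change for Kmt2c KO was 2.06 ± 0.52 (edgeR adjusted p = 0.0166), a call that did not hold when Kmt2c KO library 3 (adjusted p = 0.115) or WT library 1 (0.0687) was left out. Ly6i, which was nearly absent from tumour cells, stood at 0, 0 and 23.0 CPM in WT, at 104, 122 and 85.5 CPM in Kmt2c KO and at 53.3, 166 and 45.0 CPM in Kmt2d KO. Its fitted log2 fold change was 3.24 ± 0.67 for Kmt2c KO (edgeR adjusted p = 0.00439) and 3.08 ± 0.72 for Kmt2d KO (adjusted p = 0.0513), values that rest on 6 WT UMIs in 1 library and are no bound. The 16 Ly6i UMIs of Kmt2c KO library 1 came from 3 of 67 cells (4.48%), a lower share than the 5 of 68 (7.35%) in WT library 3, while libraries 2 and 3 of Kmt2c KO held it in 16.2% and 14.2% of cells. All Ly6i UMIs of Kmt2d KO libraries 1 and 3 came from 1 cell each, whereas 12 of 48 cells in library 2 held it.

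For Kmt2c KO against WT 5 of 5 members were called in macrophages, where 9.43% of the 4433 genes tested were called. Ly6a, Ly6c1 and Ly6i had more than 3 UMIs in only 1 WT library and so passed the low-count filter through the KO libraries, which leaves Ly6c2 and Ly6e as the members to set beside that share. For Kmt2d KO against WT 0 of 5 were called (0.767% of all genes), and Ly6i was called by DESeq2 (adjusted p = 0.0131). There 5 of 5 had an unadjusted edgeR p under 0.05 (0.000486 for Ly6i to 0.0364 for Ly6c1), as had 382 of the 4433 genes. Ly6a, Ly6c1 and Ly6i are again among these 5. Without Kmt2d KO library 1, Ly6i (3.44, edgeR adjusted p = 0.0152) and Ly6c2 (1.54, 0.0339) were called, and without library 3, Ly6i (3.30, 0.0472). For Kmt2d KO against Kmt2c KO 0 of 5 were called (0.361% of all genes), and DESeq2 called Ly6e (−1.21, adjusted p = 0.0430). There 3 of 5 members and 572 of the 4433 genes had an unadjusted edgeR p under 0.05. Without Kmt2d KO library 2 this contrast called 194 genes. The log2 fold changes were then −5.54 for Ly6a, −1.59 for Ly6c2, −1.92 for Ly6e, −1.27 for Ly6c1 and −1.06 for Ly6i. These are a description, since that library was singled out by its levels. The value of Ly6a rests on 8 and 4 UMIs in Kmt2d KO libraries 1 and 3. Leaving out library 2 gave log2 fold changes against WT of −1.32 for Ly6a, 0.78 for Ly6c1, 0.32 for Ly6c2, 0.17 for Ly6e and 2.17 for Ly6i.

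Some marker lists of other cells differed with genotype in the gates, and the ranges of others overlapped. A list can rest on few genes. Over all gated macrophages the neutrophil list was mostly Csf3r (47.4 CPM, the others at most 3.51 CPM). The endothelial list there was mostly Pecam1 (50.0 CPM) and Kdr (26.3 CPM). Whether the gated cells themselves held these RNAs was not tested. In the macrophage gate the summed level of the 4 fibroblast genes was 0 CPM in all 3 WT libraries, 42.7 to 47.7 CPM in Kmt2c KO and 19.5 to 35.6 CPM in Kmt2d KO, and H2BMc-positive cells held 102 to 184 CPM of the same genes. The neutrophil list stood at 45.7 to 74.8 CPM in Kmt2c KO and 28.5 to 57.2 CPM in WT, the dendritic list at 6.52 to 116 CPM and 0 to 49.9 CPM, the mural list at 19.6 to 22.8 CPM and 3.84 to 14.3 CPM, the endothelial list at 65.2 to 151 CPM and 0 to 80.6 CPM, the T cell list at 7.12 to 41.5 CPM and 7.15 to 14.3 CPM, and the natural killer list at 0 to 14.2 CPM and 0 CPM. In the endothelial gate the fibroblast list stood at 5.65 to 131 CPM in Kmt2c KO, 5.07 to 30.3 CPM in Kmt2d KO and 0 to 8.08 CPM in WT, and the macrophage list at 16.3 to 50.8 CPM, 5.503 to 20.3 CPM and 4.99 to 12.4 CPM. In H2BMc-positive cells the macrophage list stood at 18.7 to 22.4 CPM in Kmt2c KO and 11.7 to 15.7 CPM in WT, and the neutrophil list at 0.603 to 0.862 CPM and 0.114 to 0.36 CPM. Their part in the levels of the members was not tested beyond the gauges that follow. With Pdgfra, a gene of that fibroblast list, as the gauge of tumour-cell RNA in the gate, carry-over would account for at most 54.4% of a library's Ly6a level in macrophages (median 38.1% over 7 libraries), 45.8% of Ly6c1, 18.5% of Ly6c2, 27.8% of Ly6e and 0.446% of Ly6i. With Krt8 as the gauge, in gates without the limit on H2BMc and Krt8, the median was 61.9% and the highest 155% for Ly6a, and the highest 72.9% for Ly6c1, 38.6% for Ly6c2, 62.1% for Ly6e and 0.991% for Ly6i. In the endothelial gate the highest share of any member was 9.21% with Pdgfra and 18.5% with Krt8. When gated cells also had to lack Pdgfra UMIs, the 3 endothelial and 5 macrophage calls were kept (log2 fold change of Ly6a in macrophages 4.27, edgeR adjusted p = 0.0156) and the call of Ly6a in T cells was lost. Only 3.51% of the gated macrophages and 2.59% of the endothelial cells held a Pdgfra UMI. This gate therefore removed few cells, and the kept calls decide nothing about carry-over. Of the macrophage calls, those of Ly6a, Ly6c1 and Ly6i keep the limit of the low-count filter given above. A change in which cells pass a gate cannot be told apart from a change within them.

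In T cells, where Ly6 proteins mark activation and memory, libraries 2 and 3 of WT held 90.3 and 580 CPM of Ly6a, the same numbers of Kmt2c KO 2331 and 2651 CPM, and libraries 1 and 3 of Kmt2d KO 1357 and 766 CPM. All 4 KO libraries lay above both WT libraries, which held 13 and 12 T cells. The log2 fold change was 2.91 ± 0.62 for Kmt2c KO (edgeR adjusted p = 0.0438), lost without WT library 2 (2.29, adjusted p = 0.595), with RLE scaling (0.0564), with only the 2 groups (0.296) and in cells without Pdgfra (0.0562), and 1.66 ± 0.64 for Kmt2d KO (adjusted p = 0.990). Ly6e stood at 361 and 41.4 CPM in WT, at 680 and 545 CPM in Kmt2c KO and at 741 and 312 CPM in Kmt2d KO, and its groups of Kmt2d KO and WT overlapped. Of the 2 members tested, 1 was called for Kmt2c KO against WT (0.337% of 1186 genes). For Kmt2d KO 0 were called against WT (0.0% of all genes, with 47 genes at an unadjusted p under 0.05 and 0 called by DESeq2) and 0 against Kmt2c KO (0.337% of all genes). Ly6a gave 2 and 14 UMIs and Ly6e 8 and 1 UMIs in T cells of WT libraries 2 and 3. Both thus had more than 3 UMIs in only 1 WT library and passed the low-count filter through the KO libraries. This leaves no member to set beside these shares. Genes of the natural killer list stood at 993 to 1134 CPM in the Kmt2c KO gate, 284 to 540 CPM in Kmt2d KO and 414 to 1219 CPM in WT. Over all gated T cells this list was nearly all Nkg7 (847 CPM, against 1.87 CPM each of Ncr1 and Klrb1c). The endothelial list stood at 56.7 to 66.2 CPM in the KO libraries and 0 to 41.4 CPM in WT, and the fibroblast list at 14.7 to 56.7 CPM and 0 CPM. Over all gated T cells the endothelial list was mostly Pecam1 (57.8 CPM, any other gene of it at most 1.87 CPM). Whether the T cells themselves held these RNAs, and the part of these lists in the Ly6a level, was not tested.

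Whether the genotype effect differed between macrophages and endothelial cells was tested in 1 fit over both types with the library as a block, in which 2.99% of 6227 genes were called for Kmt2c KO. Ly6c2 rose more in macrophages by 1.89 ± 0.29 on the log2 scale (edgeR adjusted p = 1.04e-04), Ly6a by 2.20 ± 0.49 (0.00774) and Ly6e by 1.19 ± 0.23 (0.00169). For Ly6c1 the difference was 0.48 ± 0.46 (edgeR adjusted p = 0.756) and for Ly6i 2.85 ± 0.95 (0.116). That of Ly6c1 ran from 0.13 to 1.63 with 1 library left out, and macrophages of WT library 2 held 0 Ly6c1 UMIs. The value of Ly6a rests on the macrophages of WT library 3, since those of WT libraries 1 and 2 held 0 Ly6a UMIs, and is no bound. It ran from 1.77 to 2.32 with any other library left out. Without WT library 3 it was 9.002, where the remaining WT macrophages held no Ly6a UMI. The 3 calls were kept without any single library (highest edgeR adjusted p 0.0279 for Ly6a, 0.0171 for Ly6e and 0.00208 for Ly6c2). By the Krt8 gauge above, tumour-cell RNA would be a larger part of the macrophage than of the endothelial levels. That gauge was read in gates without the limit on H2BMc and Krt8, a limit that the gates of this fit had. The medians were 61.9% against 0.744% for Ly6a, 35.8% against 4.14% for Ly6e and 16.0% against 0.236% for Ly6c2. The part of carry-over in these differences was not tested. For Kmt2d KO 0.337% of genes were called and Ly6c2 was among them with 1.48 ± 0.32 (adjusted p = 0.0305), a call lost without Kmt2d KO library 2 (1.35, adjusted p = 0.157) or without WT library 1, 2 or 3 (adjusted p 0.0914, 0.119 and 0.101).

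**Figure D3:**
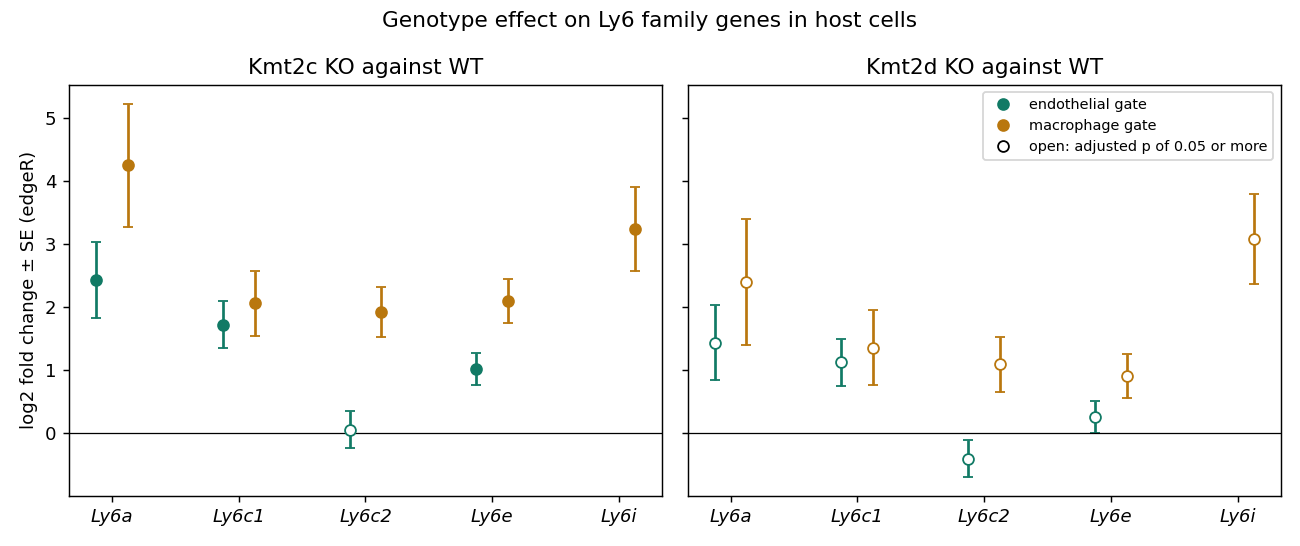
Log2 fold change ± SE from edgeR (y axis) of each Ly6 gene (x axis) in endothelial cells and macrophages, for Kmt2c KO (left) and Kmt2d KO (right) against WT, with 3 libraries per group and open points for adjusted p of 0.05 or more. For Kmt2c KO, Ly6c2 stands at 0.05 in endothelial cells and 1.92 in macrophages, whereas Ly6c1 stands at 1.72 and 2.06, and all points for Kmt2d KO are open.

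To set the Ly6c pair side by side, the share of Ly6c1 among the UMIs of Ly6c1 and Ly6c2 was read in each library. In endothelial cells it was 56.1%, 60.4% and 49.4% for Kmt2c KO, 49.6%, 56.4% and 48.1% for Kmt2d KO and 27.8%, 22.7% and 32.3% for WT. No KO library overlapped WT, and Kmt2d KO libraries 1 and 3, whose endothelial Ly6a was in or below the WT range, lay with the other KO libraries. In these libraries Ly6c2 was low, at 219 and 415 CPM against 569 to 603 CPM in WT. Their Ly6c1 stood at 216 and 385 CPM against 167 to 287 CPM in WT, so a higher share need not mean more Ly6c1. The means were 55.3% ± 5.53 (SD, n = 3) for Kmt2c KO, 51.4% ± 4.39 for Kmt2d KO and 27.6% ± 4.77 for WT, each KO differing from WT with p = 0.10 in a two-sided exact permutation test, the smallest p that 3 against 3 allow. In the H2BMc-positive cells it was 47.7%, 49.6% and 46.5% for Kmt2c KO, 46.0%, 42.8% and 41.3% for Kmt2d KO and 22.6%, 23.7% and 28.6% for WT.

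Macrophages had no such separation. Their Ly6c1 share was 31.6%, 28.4% and 28.6% in Kmt2c KO, 33.3%, 29.1% and 35.7% in Kmt2d KO and 18.8%, 0% and 36.6% in WT, where the pair gave only 16 and 8 UMIs in libraries 1 and 2 (two-sided exact permutation p = 0.40 for each KO against WT). Few cells carried some of these counts. In Kmt2d KO libraries 1 and 3 Ly6c1 came from 1 and 2 cells and Ly6c2 from 2 cells each. Each gene came from 1 cell in WT library 1, so the lack of a separation is weakly shown. The capitals in the Ly6c sequences above mark where reads of the pair can be told apart in the first coding bases. How reads that fit both copies were counted, and whether that differed between libraries, was not tested. The Ly6c share was examined after the levels had been seen.

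**Figure D4:**
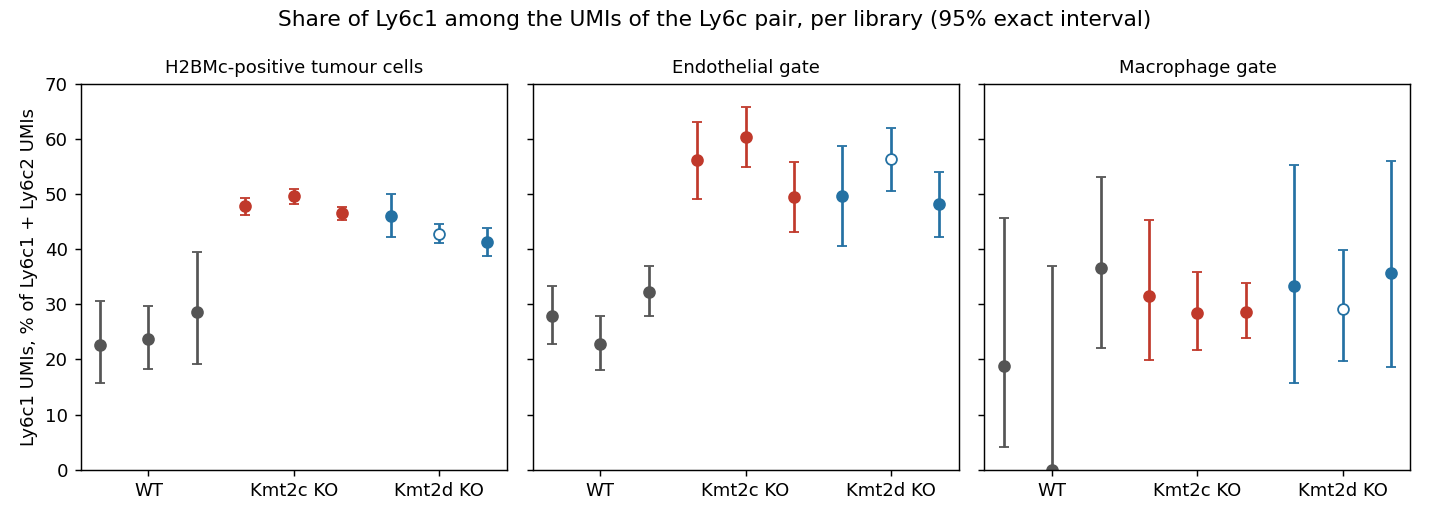
Ly6c1 UMIs as a percent of Ly6c1 and Ly6c2 UMIs (y axis) in each library (points, WT, Kmt2c KO and Kmt2d KO from left to right), with 95% exact binomial intervals that cover counting error only. In endothelial cells the WT libraries lie at 22.7% to 32.3% and the 6 KO libraries at 48.1% to 60.4%, and in macrophages the groups overlap.

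Across cell types of the same library, the endothelial gate held more of each member than the tumour cells. The differences in log2(CPM + 1), tumour cells minus endothelial cells, were −2.56 ± 0.99 for Ly6a (SD, n = 9), −4.35 ± 1.24 for Ly6c1, −4.07 ± 1.42 for Ly6c2 and −1.08 ± 0.15 for Ly6e, lower in tumour cells in 9 of 9 libraries (two-sided exact sign-flip permutation p = 0.00391, adjusted p = 0.0146 over 30 tests). Ly6i was lower in tumour cells in 8 of 9 libraries (exact adjusted p = 0.0260), on only 0 to 5 endothelial UMIs per library. Ly6e thus had nearly the same offset in every library, whereas the offsets of the Ly6c pair varied most.

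Endothelial cells also exceeded macrophages in Ly6a, Ly6c1 and Ly6c2 in 9 of 9 libraries each (exact adjusted p = 0.0146). The difference was 1.72 ± 0.88 for Ly6c2 on the log2 scale, whereas no size is given for Ly6a and Ly6c1, because WT macrophages of library 2 (and for Ly6a of library 1) held 0 UMIs and the pseudocount then sets the difference. Endothelial cells were also higher in Ly6e by 0.63 ± 0.61, in 8 of 9 libraries (exact adjusted p = 0.0426, lost in 8 of the 9 omissions of a library). Macrophages exceeded tumour cells in Ly6c2 by 2.35 ± 0.74 in 9 of 9 libraries (exact adjusted p = 0.0146) and in Ly6i in 7 of 9 (0.0426, lost in 7 of the 9 omissions). Ly6a did not differ beyond its spread between tumour cells and macrophages, with tumour cells higher in 4 of 9 libraries (exact adjusted p = 0.343). Pairs with T cells had 6 libraries, which allow no exact sign-flip p below 0.03125. Several pairs sat at that limit, and none passed after adjustment (smallest exact adjusted p 0.0586).

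Interferon-response genes, counted from lists that hold no Ly6 gene, rose in the same host cells. In endothelial cells of Kmt2c KO against WT, 9 of 15 type I response genes rose and 0 fell (median log2 fold change 1.67, against 0.01 over all genes), led by Ifi27l2a (3.63 ± 0.49), Irf7 (2.50), Isg15 (2.04) and Oas1a (2.01). Of the interferon gamma response 13 of 16 rose (median 1.85), led by Ciita (3.99), the transactivator of MHC class II genes, the feedback inhibitor Socs1 (3.74), the chemokine gene Cxcl9 (3.57) and Igtp (2.78). Of ligands, receptors and signalling genes 2 of 8 rose, Stat2 (2.04) and Irf9 (1.31), which encode subunits of the type I interferon transcription factor complex. The summed interferon gamma list stood at 1218, 1400 and 2997 CPM in WT, at 7213, 7839 and 9121 CPM in Kmt2c KO and at 1859, 10068 and 2683 CPM in Kmt2d KO, so that Kmt2d KO library 2 was the highest of all.

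In macrophages 12 of 14 type I genes rose in Kmt2c KO (median 1.98, against −0.0007 over all genes), led by Isg15 (2.90 ± 0.44), Ifit3 (2.51), Oasl2 (2.38) and Xaf1 (2.23). Of the interferon gamma response 13 of 16 rose (median 2.01), led by Igtp (2.91), Iigp1 (2.75), Gbp2 (2.46) and Socs1 (2.45). Of the signalling genes Stat2 rose by 1.33 and the receptor gene Ifngr1 fell by 1.00, of 9 tested. The contrast of Kmt2d KO with WT, which called 0.0371% of all genes in endothelial cells and 0.767% in macrophages, called 0 genes of any list. The median log2 fold changes there were 0.73 (type I) and 1.09 (interferon gamma) in endothelial cells, against 0.02 over all genes, and 0.68 and 1.07 in macrophages, against −0.0052. Library 2 was the highest of Kmt2d KO in each summed list. The type I list stood at 1602, 5762 and 2273 CPM in endothelial cells (WT 1190 to 2526) and at 2818, 4779 and 3005 CPM in macrophages (WT 2001 to 3778). The interferon gamma list in macrophages stood at 1542, 5199 and 2717 CPM (WT 1490 to 2230). Medians without library 2 were not read. In T cells 0 of 4 type I and 0 of 7 interferon gamma genes were called in any contrast.

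The rest of the Ly6 and uPAR family was mostly too low to test. Of 37 genes listed, 2 were tested in endothelial cells, where Plaur, the urokinase receptor gene, rose by 0.98 ± 0.23 in Kmt2c KO (edgeR adjusted p = 0.0214), and 1 in macrophages, where it was not called. In H2BMc-positive cells 3 were tested, and Slurp1 (3.16 ± 0.69) and Lynx1 (1.15 ± 0.18) were higher in Kmt2c KO, beside 13 of 14 type I and 16 of 16 interferon gamma genes, all in the contrast on which the members were chosen.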

How the data were processed

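Suspensions of 9 primary tumours, cleared of debris and dead cells on a Percoll gradient, were sequenced as 5′ single-cell libraries. The authors aligned and counted the reads with Cell Ranger 7.0.1 to mm10, per the submitters' processing notes, and deposited whole-number UMI counts per gene and barcode. The treatment of reads that fit several genes is not stated. A barcode's suffix gives its library, and the deposited aggregation table gives each library a letter, C for Kmt2c KO, D for Kmt2d KO and X, taken as WT because the study names its knockout comparisons CvX and DvX.

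Following the study, cells needed over 500 and under 7500 genes and under 15% mitochondrial counts. H2BMc-positive cells had at least 1 H2BMc UMI and at most 1 detected marker of each host list. Host cells had at least 3 of 10 endothelial, macrophage or T cell markers, at most 1 of each other list, and 0 H2BMc and 0 Krt8 UMIs. No doublet caller was run, and the marker limits are the only guard. Counts were summed per library and gate (at least 10 cells), since cells are not replicates, and tested with edgeR 4.0.16 (R 4.3.3; filterByExpr, TMM, glmQLFit and glmQLFTest, genotype as the only factor, all groups in 1 fit), with Benjamini-Hochberg adjustment. The script was tested on simulated data. Each standard error is the log2 fold change divided by the root of the F statistic. DESeq2 1.42.0 served as an alternative. Cell types of a library were compared on log2(CPM + 1) by exact sign flips. Cells were thinned to 2000 UMIs for shares. Other steps used Python 3.11.15, numpy 2.4.6, pandas 2.3.3, scipy 1.17.1 and matplotlib 3.10.9. A fixed gauge of tumour-cell RNA, Krt18, was void because tumour cells hold almost none, and Pdgfra and Krt8 replaced it after the data had been seen, as did the gate without Pdgfra, the fit over both host types and the interferon bins.

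The members and lists were chosen with earlier results of these data known. Named are the 5 members, the checks, at most 4 called genes of each list in each direction by size, and the 5 genes most like each member with at least 5 CPM in tumour cells, among genes of at least 10 CPM. The labels do not say whether tumours of a group were handled apart, so p-values cover the spread between these tumours. Intervals cover counting error only.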

Additional observations from a re-analysis of the deposited data

Results flagged for a closer look

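In 4 results the genotype effect differed between macrophages and endothelial cells of the same tumours by a test of the difference itself. The fit over both types was added after the data had been seen. It called 2.99% of 6227 genes for Kmt2c KO and 0.337% for Kmt2d KO. For Kmt2c KO against WT the macrophage effect exceeded the endothelial one by 1.89 for Ly6c2, 2.20 for Ly6a and 1.19 for Ly6e on the log2 scale. For Kmt2d KO against WT it did so by 1.48 for Ly6c2, a call lost without Kmt2d KO library 2 or any 1 WT library while the value stayed at 1.33 to 1.62 over the 9 omissions. Ly6a in macrophages gave no UMI in WT libraries 1 and 2, so the size of its difference is no bound. Carry-over of tumour-cell RNA would account for a median of 38.1% (Pdgfra gauge) or 61.9% (Krt8 gauge) of macrophage Ly6a. The Krt8 gauge was read in gates without the limit on H2BMc and Krt8, and so not in the cells tested here. In endothelial cells the highest share of any member was 9.21% or 18.5%. The part of carry-over in these differences was not tested.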

How the results depend on the processing

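No paired analysis was possible because the libraries cannot be matched to the replicate numbers of the labels, so that nothing pairs them across genotypes, and only cell types of 1 library were compared as pairs. Of 1483 recomputed values 1303 kept their direction and side of the threshold or moved by less than the spread, and the cause of the others was not tested. Values are log2 fold changes. For Kmt2c KO against WT, Ly6a in T cells (2.91) was not called with RLE scaling (2.88), with only the 2 groups (2.89) or without Pdgfra (2.89), and Ly6a in endothelial cells not with DESeq2 (2.43). Ly6i in macrophages was not called without the limit on H2BMc and Krt8 (2.67). Ly6c2 in endothelial cells turned sign with at least 2 markers (−0.11), without that limit (−0.0693) and with no low-count filter (−0.0592). In the Kmt2d KO comparison with WT, no filter gave calls of Ly6a (1.31 in endothelial cells, 2.35 in macrophages), Ly6c1 (1.025, endothelial) and, in macrophages, Ly6e (0.87) and Ly6i (3.05), and DESeq2 called Ly6i there (3.20). Ly6i in H2BMc-positive cells moved to 1.61 for Kmt2d KO when Krt8 was required, and its values there rest on 3 WT UMIs and are no bound.

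Leaving out 1 library gave these ranges of log2 fold change. In T cells this left 1 library in a group, which was then assumed to vary like the others, and in macrophages without WT library 3 the values of Ly6a and Ly6i rest on WT libraries at 0 and are no bound. For Kmt2c KO against WT they were 2.20 to 2.80 (Ly6a), 1.53 to 1.96 (Ly6c1), −0.12 to 0.15 (Ly6c2) and 0.89 to 1.09 (Ly6e) in endothelial cells, 3.77 to 11.71 (Ly6a) and 1.62 to 3.59 (Ly6c1) in macrophages, 2.29 to 4.91 (Ly6a) in T cells and 2.57 to 4.02 (Ly6i) in H2BMc-positive cells. Those for Kmt2d KO against WT were 1.16 to 2.85 (Ly6a), 1.93 to 3.06 (Ly6c1), 0.69 to 1.88 (Ly6c2), −0.15 to 0.39 (Ly6e) and 0.58 to 2.93 (Ly6i) in H2BMc-positive cells, −0.33 to 1.89 (Ly6a), 0.39 to 1.47 (Ly6c1) and −0.24 to 0.44 (Ly6e) in endothelial cells, and −1.32 to 9.86 (Ly6a), 0.32 to 1.54 (Ly6c2) and 2.17 to 7.58 (Ly6i) in macrophages. The difference between macrophages and endothelial cells for Kmt2d KO ranged from −0.60 to 7.60 (Ly6a) and 1.33 to 1.62 (Ly6c2). Between the KO groups (Kmt2d minus Kmt2c), Ly6e in T cells ranged from −1.08 to 0.27 and Ly6i in macrophages from −1.06 to 0.20 (above 0 without Kmt2c KO library 2 or Kmt2d KO library 1 or 3), and Ly6i in tumour cells minus T cells from −0.53 to 0.32.

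The number of genes called moved by more than 1.5 times in several fits. For Kmt2d KO against WT the 286 genes in H2BMc-positive cells became 621 with DESeq2, 558 with no filter and 170 with only the 2 groups (96 to 781 with 1 library left out), and the 2 in endothelial cells became 21, 122 and 0, 45 with at least 2 markers and 29 without the limit on H2BMc and Krt8 (0 to 27). The 34 in macrophages became 177 with no filter, 9 with only the 2 groups, 119 with at least 2 and 6 with at least 4 markers, 138 without the limit and 2 without Pdgfra (9 to 64), and the 0 in T cells became 4 with no filter or without the limit (0 to 3). For Kmt2c KO against WT the 343 in endothelial cells became 573 with no filter and 592 with only the 2 groups (72 to 659), the 418 in macrophages 743 with at least 2 markers and 778 with no filter (228 to 510), and the 4 in T cells 15 with no filter, 8 without the limit, 2 with RLE scaling and 0 with only the 2 groups or without Pdgfra (0 to 12). The 2533 in H2BMc-positive cells moved so only when a library was left out (1149 to 3978). For Kmt2d KO against Kmt2c KO the 0 genes in H2BMc-positive cells became 541 with DESeq2, 633 with no filter, 147 with at least 2 H2BMc UMIs and 2715 without Kmt2d KO library 2 (0 to 53 without any other library) and 3 to 12 with other cell filters. The 4 in endothelial cells became 12 with DESeq2, 150 with no filter, 314 without that library (0 to 8 without another) and 0 to 2 with other gates or only the 2 groups, the 16 in macrophages 34, 170, 194 (1 to 24) and, with other gates, 1 to 10, and the 4 in T cells 17 with no filter and 2 to 7 with other gates or DESeq2 (4 to 25 without 1 library). With at least 4 markers or at least 20 cells per library, T cells gave no value for Ly6a against WT. Host gates held 12 to 190 cells per library, and members of few UMIs there, Ly6i above all, had no detectable difference unless it was large.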
